A study of Mus musculus with 24 samples.

Results

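The 8 genes described here are members of the chromodomain helicase DNA-binding (CHD) family, Chd9, Chd6, Chd7, Chd8, Chd3, Chd4, Chd1 and Chd2, taken by symbol from a table of 21960 genes. Chd9 was selected on measured values, chosen by its p in the comparison of ligated animals at day 15 with those at day 8, in which it ranked first of all genes tested. The other 7 members serve as comparison. The values of Chd9 in every comparison that holds a ligated group are therefore given as a description without a test, and the comparison of the sham groups is the one in which it was tested. The next genes in that ranking were Serpina1b, with a log2 fold change of 3.29 (SE 0.49), and Kng1, with 3.74 (SE 0.59), beside 2.74 (SE 0.37) for Chd9.

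CHD proteins use ATP to slide, space or evict nucleosomes, and they carry paired chromodomains that bind modified histone tails. Chd1 and Chd2 act on transcribed genes, Chd3 and Chd4 are alternative motor subunits of the NuRD deacetylase complex, and Chd6, Chd7, Chd8 and Chd9 form a subfamily with BRK domains. Chd9 has also been described as a coactivator of PPAR-alpha, the nuclear receptor that drives fatty acid oxidation in the liver.

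RNA was sequenced from vesicles precipitated with ExoQuick from the plasma of male C57BL/6J mice, an inbred strain, in 4 groups of 6 animals. The groups were bile duct ligation (BDL) at day 15, sham surgery at day 15, BDL at day 8 and sham surgery at day 8, counted from the operation. Ligation blocks bile flow and leads to cholestasis and liver fibrosis. The labels give no age and no other allele or agent, and their tissue entry reads liver although their site entry and the protocol describe vesicles. In such bulk RNA, fewer vesicles from a cell type and less of a transcript per vesicle cannot be told apart.

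Totals per library ran from 315404 to 465744 counts in BDL animals and from 157133 to 351201 in sham animals at day 15. At day 8 the totals were 167939 to 937963 in BDL animals and 101733 to 824640 in sham animals, and the libraries numbered 4 to 6 (535737 to 937963) were deeper than those numbered 1 to 3 (101733 to 349386). Levels below are CPM, counts scaled to a common library size by TMM, over the 4112 genes kept by the filter on low counts, which kept all 8 members. Genes are called at a Benjamini-Hochberg adjusted p under 0.05 in edgeR's quasi-likelihood test over those 4112 genes.

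Chd9 (ENSMUSG00000056608) lies on the plus strand of GRCm38 chromosome 8 from 90828352 to 91054516, a span of 226165 bases with 15 annotated transcripts, 7 of them coding. RefSeq (GRCm38.p6) places start sites of Chd9 in 2 windows, one at the 5′ end and one inside the gene. They are shown because gene counts do not separate transcripts that begin at one from those that begin at the other. Capitals mark each CG dinucleotide.

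Chd9 window at chr8:90828585-90828884, plus strand: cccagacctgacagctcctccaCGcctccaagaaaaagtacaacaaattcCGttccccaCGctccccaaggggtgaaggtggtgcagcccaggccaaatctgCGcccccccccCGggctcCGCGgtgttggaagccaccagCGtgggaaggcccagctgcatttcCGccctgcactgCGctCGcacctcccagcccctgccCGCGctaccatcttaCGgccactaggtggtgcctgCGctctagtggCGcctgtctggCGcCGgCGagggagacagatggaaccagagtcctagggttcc

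Chd9 window at chr8:90931999-90932298, plus strand: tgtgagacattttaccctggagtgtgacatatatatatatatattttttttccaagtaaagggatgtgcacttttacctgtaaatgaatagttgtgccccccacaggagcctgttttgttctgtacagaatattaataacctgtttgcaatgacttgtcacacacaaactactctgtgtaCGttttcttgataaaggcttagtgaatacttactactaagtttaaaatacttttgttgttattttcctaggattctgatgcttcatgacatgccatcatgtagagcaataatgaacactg

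The window at the 5′ end had 65.7% G and C and 19 CG dinucleotides, against medians of 52.7% and 7 over 32817 promoter windows of 300 bases. The window inside the gene had 34.7% and 1. The TATA box motif, searched on both strands as TATAAA, was in neither window and in 13.6% of all windows. The nuclear receptor half-site, searched on both strands as AGGTCA, was in neither and in 16.3% of all windows. The 2 motifs do not overlap in letters. No match says only that these letters are not in the windows. RefSeq windows were also found for Chd4, Chd6 and Chd8, so 4 of 8 members had one.

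Chd9 transcripts were at 2798 ± 1879 CPM in BDL animals and 77.0 ± 24.7 CPM in sham animals at day 15 (SD, n = 6 each). The lowest, median and highest BDL animals had 972, 2441 and 5948 CPM, and the sham animals 42.4, 76.7 and 115 CPM. All 6 BDL animals lay above all 6 sham animals, as they did for 2.38% of all tested genes. The log2 fold change was 5.18 (SE 0.41, 95% interval 4.34 to 6.01), a 36.1-fold difference. In counts, the BDL libraries numbered 1 to 6 held 1557, 1177, 541, 335, 1130 and 370 Chd9 counts, and the sham libraries 16, 26, 11, 30, 11 and 20.

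At day 8 Chd9 was at 423 ± 324 CPM in BDL animals and 79.2 ± 21.9 CPM in sham animals. The lowest, median and highest BDL animals had 171, 326 and 1072 CPM, and the sham animals 47.8, 80.5 and 106 CPM. Again all BDL animals were above all sham animals, as for 1.97% of tested genes, and 5 of the 6 BDL animals lay at or under 342 CPM while animal 3 stood apart at 1072 CPM. The log2 fold change was 2.37 (SE 0.40). With the shallow libraries 1 to 3 alone it was 2.66, and with the deep libraries 4 to 6 alone 1.83.

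Between days, ligated animals had a log2 fold change of 2.74 (SE 0.37, 95% interval 1.97 to 3.51) for day 15 over day 8. Chd9 was chosen by its p in this comparison, and the interval does not allow for that choice. The ranges of the 2 groups overlapped through animal 3 of day 8, which was above the lowest animal of day 15. The ligation effect of day 15 minus that of day 8 came to 2.80 log2 units (SE 0.57). With the day 8 libraries 1 to 3 alone the value for day 15 over day 8 was 2.28, and with libraries 4 to 6 alone 3.36. Those comparisons share libraries and are not separate evidence.

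In sham animals, where Chd9 was tested, it was at 77.0 CPM at day 15 and 79.2 CPM at day 8. The log2 fold change was -0.06 (SE 0.43, 95% interval -0.95 to 0.83), with an adjusted p of 0.988 in edgeR's quasi-likelihood test. The interval leaves room for a change of nearly 1 log2 unit either way, but its width draws on the spread of all 24 libraries, ligated ones included. With the 2 sham groups fitted alone, the log2 fold change was -0.04 (SE 0.25). Of the 4112 genes, 0 were called between the sham groups by edgeR (0%), 439 had an unadjusted p under 0.05, and DESeq2 called 5.

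**Figure D1:**
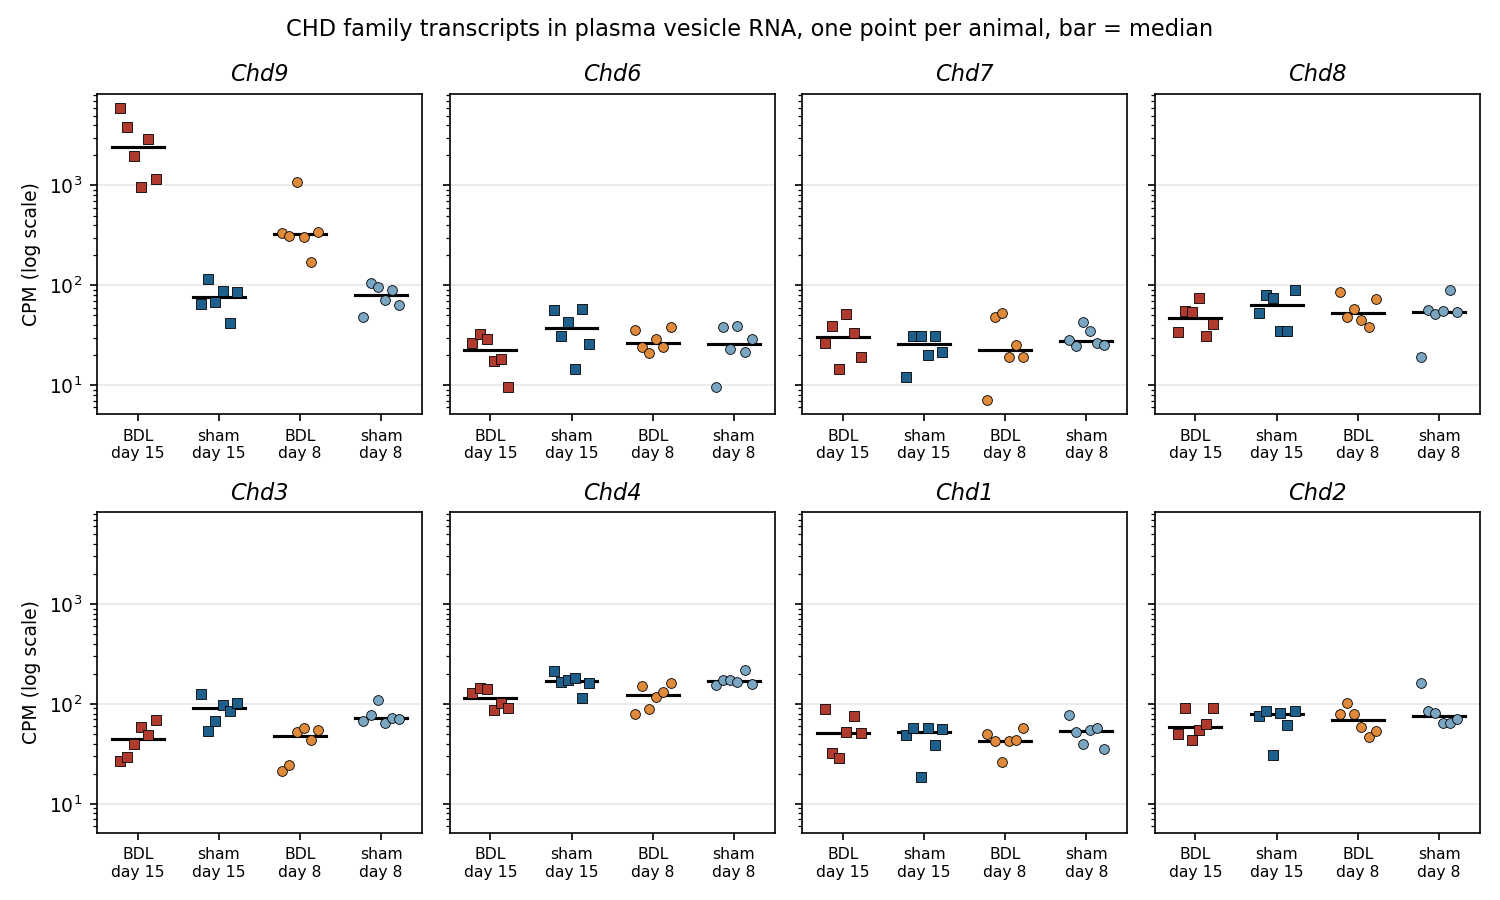
CPM on a log axis for each member in the 4 groups of 6 animals, 1 point per animal and a bar at the median. Chd9 in BDL animals sits between 972 and 5948 CPM at day 15 and between 171 and 1072 CPM at day 8, above every sham animal of its day, while the highest value of the other 7 members in the 24 libraries is 218.8 CPM, of Chd4.

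The spread of Chd9 between ligated animals was far above what counting gives. Its coefficient of variation was 67.2% in BDL animals at day 15, where counting error alone corresponds to 3.39%, and 76.5% at day 8, against 9.45%. In sham animals it was 32.1% at day 15, with 23.6% from counting, and 27.6% at day 8, with 20.7%. The sham values thus lay close to their counting error, and the ligated values did not. The day 8 value of 76.5% includes animal 3 at 1072 CPM, while the other BDL animals lay at 171 to 342 CPM. The spread without that animal was not computed.

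The share of Chd9 in the counts of the 8 members was higher in every ligated animal than in any sham animal. Chd9 made up 84.1% ± 8.89 of them in BDL animals and 13.3% ± 3.51 in sham animals at day 15. At day 8 it made up 47.4% ± 13.97 in BDL animals and 13.5% ± 3.02 in sham animals. As a share of the whole library, BDL animal 1 of day 15 reached 0.494% (95% exact Clopper-Pearson interval 0.470 to 0.519), and the highest sham animal of that day 0.0101% (0.00661 to 0.0148). These intervals cover counting error only.

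Scaled by exon length, Chd9 ranked first of the 8 members in both ligated groups. It was at 242 ± 163 CPM per kb in BDL animals at day 15, with no overlap with Chd4, the next member, at 17.8 ± 3.95. At day 8 it was at 36.6 ± 28.0 CPM per kb in BDL animals, where its range overlapped that of Chd4 at 18.6 ± 5.05. In the sham groups Chd4 ranked first, at 25.8 ± 4.88 CPM per kb at day 15 and 26.6 ± 3.61 at day 8, with no overlap with Chd3, the second. Chd9 held place 5 of 8 at day 15 (6.66 ± 2.14) and place 4 of 8 at day 8 (6.85 ± 1.89), within the ranges of its neighbours in the order. Among the 4110 tested genes with a length, it ranked 154 in BDL animals and 3294 in sham animals at day 15, and 892 in BDL animals and 3238 in sham animals at day 8.

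Chd6, Chd7 and Chd8, the closest relatives of Chd9, did not pass the test in any comparison. Chd8, a regulator of Wnt target genes, was at 48.6 ± 16.5 CPM in BDL animals and 60.9 ± 23.7 CPM in sham animals at day 15, a log2 fold change of -0.29 (95% interval -0.90 to 0.33). Chd7, the gene mutated in human CHARGE syndrome, had 30.8 ± 13.8 CPM in BDL animals and 24.4 ± 7.81 CPM in sham animals, a log2 fold change of 0.38 (-0.37 to 1.13). Chd6 had 22.2 ± 8.59 CPM in BDL animals and 38.1 ± 17.4 CPM in sham animals, a log2 fold change of -0.76 (-1.47 to -0.05) with an adjusted p of 0.221 by edgeR. At day 8 the log2 fold changes of BDL over sham were -0.04 (-0.62 to 0.53) for Chd8, -0.21 (-0.89 to 0.46) for Chd7 and 0.03 (-0.62 to 0.68) for Chd6. Chd6 and Chd7 rested on 1 to 32 and 1 to 24 counts per library.

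Of the 7 comparison members, Chd3 (GRCm38 chromosome 11, 69343273 to 69369406, minus strand) was the one that passed the test, and it was lower in ligated animals at day 15. At day 15 the BDL libraries numbered 1 to 6 had 26.7, 29.2, 39.7, 58.0, 49.3 and 69.7 CPM, and the sham libraries 125, 53.1, 68.0, 98.4, 84.7 and 103 CPM. Most BDL animals were low, but animals 4 and 6 reached into the sham range. The log2 fold change was -0.96 (SE 0.26, 95% interval -1.49 to -0.43), with an adjusted p of 0.0251 in edgeR's quasi-likelihood test. It was called as 1 of 7 tested members, where 4.55% of all genes were called and 1.07% were called lower. The call was lost when BDL replicate 1, 2, 3 or 5 or sham replicate 1 or 6 of day 15 was left out. Over all 24 fits that leave out 1 library each, the log2 fold change was -1.11 to -0.84 and the adjusted p 0.00981 to 0.0724 by edgeR.

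At day 8 Chd3 was at 42.4 ± 15.9 CPM in BDL animals and 76.8 ± 16.3 CPM in sham animals. All 6 BDL animals lay below all 6 sham animals, which 0.34% of all tested genes did. The log2 fold change was -0.74 (SE 0.25) and did not pass the test (adjusted p = 0.111 by edgeR). With the shallow libraries 1 to 3 alone it was -1.39 (SE 0.46), and with the deep libraries 4 to 6 alone -0.45 (SE 0.29). BDL animals 1 and 2, the lowest, rested on 3 and 4 Chd3 counts. At that day 0 of the 7 tested members were called, where 3.14% of all genes were, and 4.91% with the animal number as a replicate block (202 genes in place of 129).

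Chd4 (chromosome 6, 125095981 to 125130591, plus strand), the motor subunit that alternates with Chd3, was at 116 ± 25.8 CPM in BDL animals and 168 ± 31.9 CPM in sham animals at day 15, and at 122 ± 32.98 CPM in BDL animals and 174 ± 23.6 CPM in sham animals at day 8. The log2 fold changes were -0.54 (SE 0.19) and -0.49 (SE 0.19), with adjusted p of 0.106 and 0.190 by edgeR. With library totals alone as the scaling, which puts the median log2 fold change of all genes at -0.22 at day 15 and -0.25 at day 8, Chd4 passed at both days (adjusted p = 0.0343 and 0.0458) and Chd3 at day 8 (adjusted p = 0.0368).

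Chd1 was at 54.5 ± 23.3 CPM in BDL animals and 46.1 ± 15.4 CPM in sham animals at day 15, and Chd2 at 65.5 ± 20.95 CPM in BDL animals and 69.9 ± 20.98 CPM in sham animals. They had log2 fold changes of 0.21 (95% interval -0.36 to 0.78) and -0.11 (-0.66 to 0.43) at day 15 for BDL over sham. At day 8 they were -0.16 (-0.71 to 0.38) and -0.30 (-0.82 to 0.22). Between days, 0 of the 7 members other than Chd9 were called in BDL animals, where 4.35% of all genes were, and 0 of 8 in sham animals. For the ligation effect of day 15 minus that of day 8, 0 of the 7 were called, as were 0% of all genes, with 234 genes at an unadjusted p under 0.05 by edgeR and 1 called by DESeq2. Chd5 and Chd1l, the remaining relatives in the table, had 9 and 77 counts in all 24 libraries and were not tested.

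**Figure D2:**
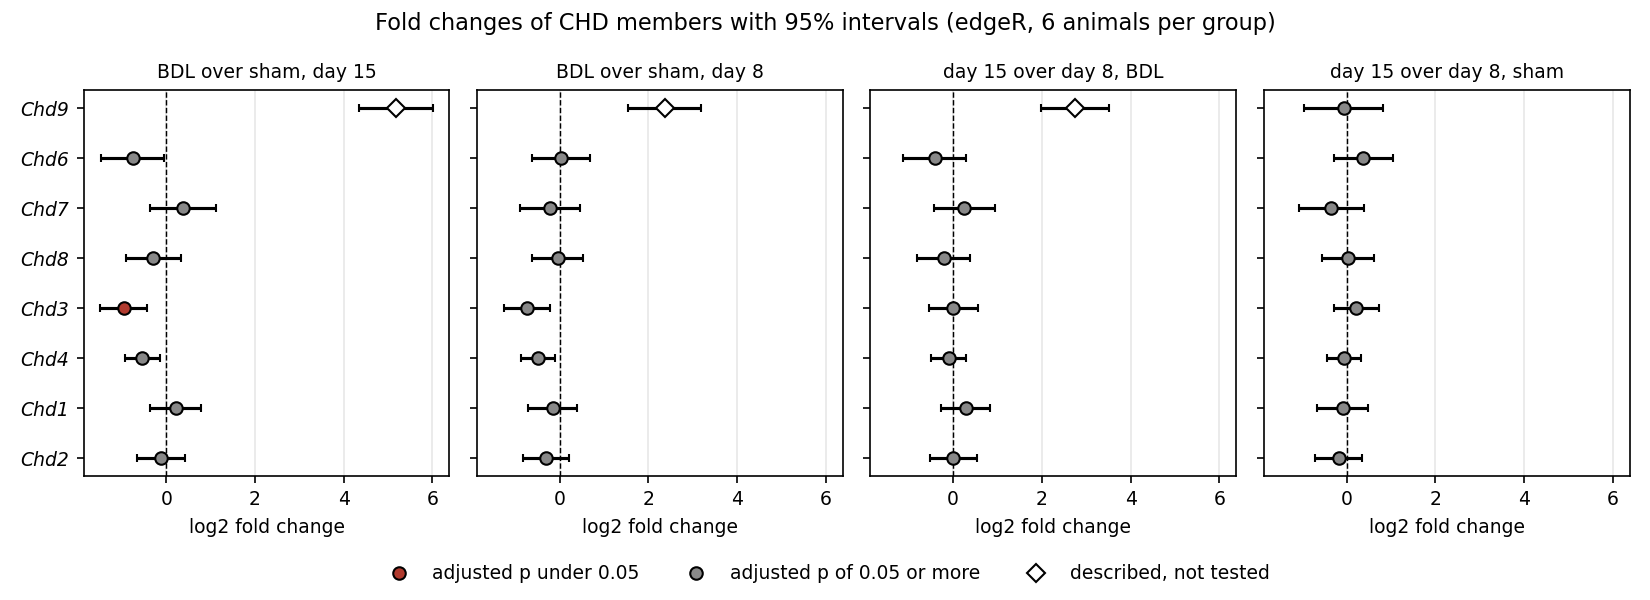
Log2 fold changes with 95% intervals of the 8 members in 4 comparisons of 6 against 6 animals, with open diamonds for Chd9 where it is described without a test. Chd9 stands at 5.18, 2.37 and 2.74 in the comparisons with ligated animals and at -0.06 between the sham groups, and Chd3 at day 15 is the one filled red point.

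Markers of hepatocytes, the liver's parenchymal cells, were also higher in BDL animals when summed. The summed level of 14 of them was 3748 to 28560 CPM in BDL animals and 64.4 to 179 CPM in sham animals at day 15, and 437 to 6711 CPM in BDL animals and 44.5 to 143 CPM in sham animals at day 8. All 6 BDL animals had a higher sum than all 6 sham animals at both days. The filter kept 13 of the 14, which could pass it through the ligated libraries alone. Fgb was at 0 in sham animals of day 8, and Mat1a and Cyp3a11 in sham animals of day 15. The part of these cells in the Chd9 result was not tested.

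The ratio of Chd9 to these markers varied among the BDL animals of day 15. Animals 1, 2, 3 and 6 had 0.435, 0.428, 0.419 and 0.313 Chd9 counts per hepatocyte marker count, and animals 4 and 5 had 0.102 and 0.103. Animal 5 had the highest marker sum, 28560 CPM, with 2931 CPM of Chd9, while animal 1 had 13670 CPM of markers with 5948 CPM of Chd9. Over these 6 libraries Pearson's r between the log2 levels was 0.51 and Spearman's rho 0.43, with r at 0.44 without the 2 libraries whose marker sums were farthest from the median. In BDL animals of day 8 the same values were 0.99 and 0.66, and r was 0.08 without the corresponding 2 libraries, so it rested on them.

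**Figure D3:**
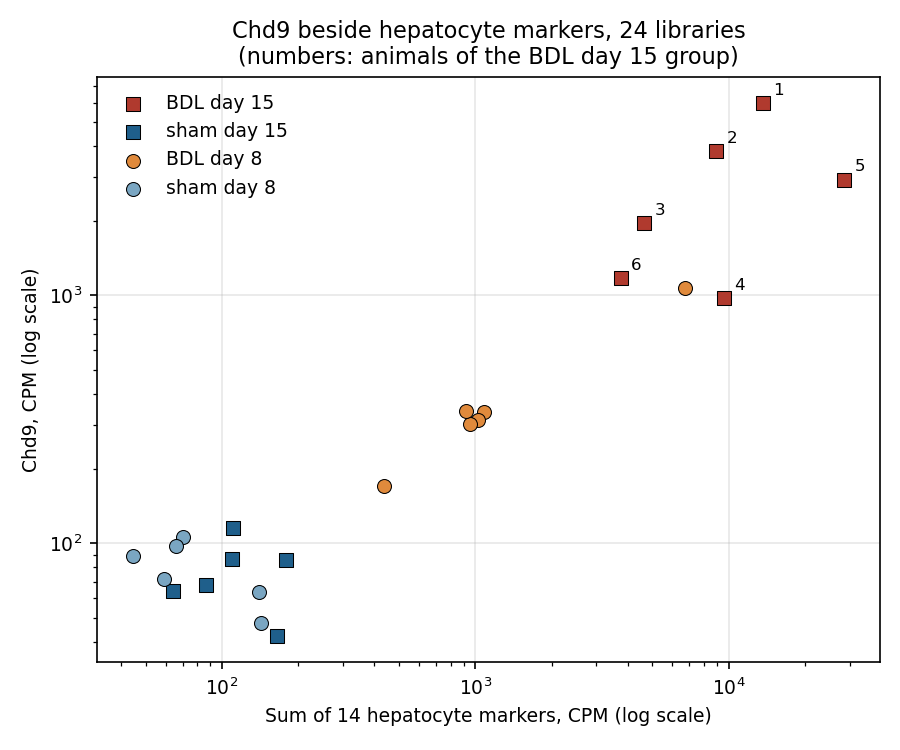
Chd9 CPM against the summed CPM of 14 hepatocyte markers, both on log axes, 1 point per library, with the BDL animals of day 15 numbered. The sham libraries lie at the lower left with marker sums of 44.5 to 179 CPM, and BDL animals 4 and 5 of day 15 lie to the right of the others of their group for their Chd9 level.

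Sums over blood cell markers also differed between libraries. The summed level of 10 erythroid markers was 86980 to 200300 CPM in BDL animals and 56310 to 83610 CPM in sham animals at day 8. At day 15 the ranges overlapped, with 51120 to 111100 CPM in BDL animals and 52420 to 141400 CPM in sham animals. Platelet markers summed to 1326 to 2312 CPM in BDL animals at day 15 and to 1531 to 10460 CPM in BDL animals at day 8. In sham animals they summed to 1025 to 2934 CPM at day 15 and to 1233 to 8997 CPM at day 8. Their part in the values of Chd9 and Chd3 was not tested.

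Beyond the CHD family, of 105 genes in 6 lists of remodelling complexes and histone-modifying enzymes, 66 were tested. Between BDL and sham animals 1 of the 66 was called at day 15, where 4.55% of all genes were, and 0 at day 8, where 3.14% were. Between days 0 were called in BDL animals, where 4.35% of all genes were, and 0 in sham animals, where 0% were. The gene called was Smarca4, the ATPase Brg1 of SWI/SNF, at 47.0 CPM in BDL animals and 88.6 CPM in sham animals, with a log2 fold change of -0.89 (SE 0.23) and an adjusted p of 0.0178 by edgeR. Of the 6 lists, the median farthest from 0 at day 15 was that of INO80, SRCAP and TIP60 subunits, at -0.51 over 11 tested genes, where all genes had a median of -0.02. The 12 NuRD partners of Chd3 and Chd4 had a median of -0.10 at that day.

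Of 12 genes of PPAR-alpha and its cofactors, 7 were tested, and 0 of the 7 were called between BDL and sham animals at day 15 or day 8, where 4.55% and 3.14% of all genes were. Ncoa1, a steroid receptor coactivator, was lower in BDL animals at day 15 (27.5 CPM) than in BDL animals at day 8 (53.9 CPM; log2 fold change -1.02, SE 0.29, adjusted p = 0.0383 by edgeR). Of 20 target genes of the receptor, 9 were tested, with a median of -0.04 at day 15 for BDL over sham, where all genes had -0.02. In that comparison 1 of the 9 was called, against 4.55% of all genes, and it was higher. Between days in BDL animals 1 of the 9 was called, against 4.35% of all genes, and it was higher at day 15. For BDL over sham at day 8, 1 of the 9 was called, against 3.14% of all genes, and it was higher. This was Plin2, a lipid droplet coat protein, with 57.5 CPM in BDL animals and 25.5 CPM in sham animals (log2 fold change 1.26, SE 0.31, adjusted p = 0.0241 by edgeR).

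**Figure D4:**
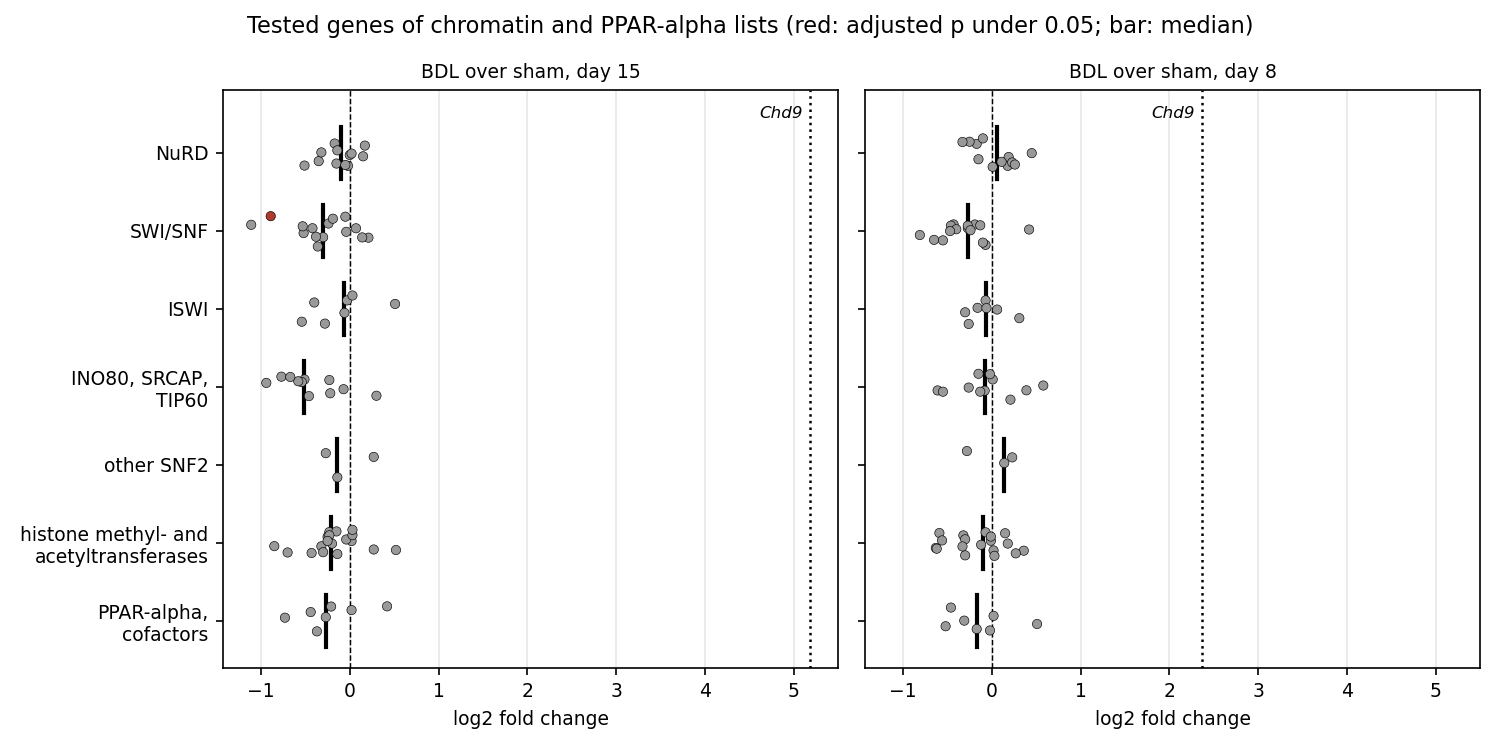
Log2 fold changes of BDL over sham for the tested genes of 7 lists at day 15 and day 8, with a bar at each list's median and a dotted line at Chd9. Smarca4 at day 15, in red, is the one gene of these lists that was called in either comparison, and no gene reached the line.

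The transcripts whose deviations from the group means were most like those of Chd9, over 24 libraries and 4078 genes, were Mtch1 (Pearson's r 0.76), Serpina3k (0.73), Kif1c (0.72), Ambp (0.69) and Ylpm1 (0.69). Serpina3k and Ambp encode plasma proteins made by the liver, Mtch1 a mitochondrial outer membrane protein and Kif1c a kinesin. Serpina3k and Ambp averaged 201 and 104 CPM in BDL animals at day 15 and at most 1.01 CPM in either sham group. These 2 genes thus reached the required mean of 20 CPM only through the ligated libraries. Their likeness to Chd9 within each treatment was not tested. The r values named above are the highest over 4078 genes, and how high r would reach by chance was not tested. The libraries share depth and composition. Chd9 correlated with the other 7 members by -0.27 to 0.20, and the pairs among those 7 lay between -0.48 and 0.36.

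Of the neighbours of Chd9 on its chromosome, Rbl2, a retinoblastoma-family pocket protein and the one neighbour that was tested, was at 39.4 ± 7.85 CPM in BDL animals and 41.2 ± 19.98 CPM in sham animals at day 15 (log2 fold change -0.06, SE 0.29, adjusted p = 0.9503 by edgeR). Aktip, a regulator of vesicle traffic, had 51 counts in the 6 BDL libraries and 32 in the 6 sham libraries, and Tox3 and Gm45396 had at most 6 in any group. The annotation has 4 genes that overlap Chd9, 2 of them on the opposite strand and 0 of them in the table. Of 12833 stretches of 75 bases in its coding transcripts, 0.296% also occur in another gene, Gm45641. The same share was 4.87% for Chd2, with 1810026B05Rik, and 4.30% for Chd8, with Gm26590 and Gm49656, so a few reads of those members could belong to the other gene.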

How the data were processed

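Vesicle RNA of 24 libraries, 1 per animal, was measured with a stranded TruSeq kit without depletion of ribosomal RNA or poly(A) selection, per the labels' protocols. Expected counts per gene were deposited as whole numbers, and the sources do not say where they were rounded. STAR and RSEM are named in the submitters' processing notes, without versions. Those notes name hg38 although every identifier is a mouse Ensembl gene, which leaves the alignment build not established. Of 21960 identifiers, 21860 were found in GENCODE M21 (GRCm38), from which coordinates were taken by identifier. The sources used here do not say how reads were split between strands and overlapping genes.

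Counts were filtered with filterByExpr (minimum count 10, minimum total 15), scaled by TMM and fitted in edgeR 4.0.16 (quasi-likelihood test, 1 mean per group, all 24 libraries, Benjamini-Hochberg over 4112 genes, R 4.3.3). Standard errors came from the weights and dispersions of that fit, a formula chosen after a simpler one had failed for fold changes near 0, and p-values did not change. Alternatives used limma 3.58.1, DESeq2 1.42.0 and other scalings, filters and libraries. The fit was tested on simulated data. Libraries of a group differed beyond sampling noise (lowest chi-square 1.74 per degree of freedom). The labels give 12 libraries per pool. They do not say which libraries shared a sequencing run, so a run and a group cannot be told apart.

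Genes named are the 8 members, up to 2 called genes per list and direction, the 5 genes most like Chd9 (mean of at least 20 CPM, predicted genes passed over) and its 2 nearest listed neighbours on each side. The members and lists were chosen with earlier results of these data known. The animal numbers were checked for pairing. Deviations of same-numbered BDL and sham libraries correlated by 0.165 to 0.327 at day 8, over 0.1 for 6 of 6 numbers, and by -0.031 to 0.113 at day 15. Libraries of different numbers were not compared. At day 8 the libraries numbered 1 to 3 were also shallower than those numbered 4 to 6. The check therefore cannot tell a pairing of animals from a shared depth, and whether the numbers pair animals was not established. Not every gene named by the rule is reported here.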

Additional observations from a re-analysis of the deposited data

Results flagged for a closer look

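Of 32 sets of 6 animals (8 members in 4 groups), 4 held an animal far from the others of its set. For normally distributed values the rule used flags about 1 in 20 sets. Whether that rate holds for CPM of low counts was not tested. For Chd9, animal 3 of the BDL group at day 8 had 1072 CPM, and the next animal 342 CPM. That library also had the highest hepatocyte marker sum of its group, 6711 CPM. The other 3 were sham animals of day 8. Animal 3 had 108.7 CPM of Chd3, with the next at 77.4 CPM. Animal 5 had 218.8 CPM of Chd4, with the next at 174.5 CPM. Animal 1, which holds the fewest counts of all libraries, had 162.5 CPM of Chd2, with the next at 84.5 CPM.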

How the results depend on the processing

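Over the 24 fits that leave out 1 library each, the log2 fold change of Chd9 was 4.81 to 5.36 for BDL over sham at day 15, 1.83 to 2.54 at day 8, 2.37 to 3.27 for day 15 over day 8 in BDL animals and -0.22 to 0.06 in sham animals, and 2.44 to 3.34 for the difference of the ligation effect. Over the other alternatives it was 4.90 to 5.20, 1.83 to 2.66, 2.28 to 3.36, -0.22 to 0.03 and 2.50 to 3.34. The counts of all genes called moved more. Without a filter they were 688 (BDL over sham, day 15), 298 (day 8), 652 (day 15 over day 8, BDL), 150 (sham) and 51 (difference). With the stricter filter (10 counts in 12 libraries) they were 112 at day 15 and 85 between days in BDL animals, and with limma-voom 117 and 337. DESeq2 called 5 genes between the sham groups and 1 for the difference. Library totals gave 287 genes at day 15 (115 higher, 172 lower), 133 at day 8 (56 higher, 77 lower, in place of 114 and 15) and 1 for the difference, and 2 comparison members at each day. A fit of the 2 groups alone gave 84 genes at day 8. With day 8 libraries 1 to 3 the counts were 292 at day 15, 46 at day 8 and 0 between days in BDL animals, and with libraries 4 to 6 they were 342, 6 and 661, with 250 in sham animals. The replicate block gave 202 genes at day 8 and 1 for the difference, and changed no member's call. Leaving out each library in turn gave 117 to 260 genes at day 15, 58 to 165 at day 8, 36 to 359 and 0 to 1 between days in BDL and sham animals, 0 to 2 for the difference, and 0 to 1 comparison members at day 15. The cause was not tested. The fit of 2 groups gives no difference of the ligation effect, and members that a stricter filter drops have no value there. Chd6 and Chd7 had the fewest counts of the members.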
